A study of Mus musculus with 16 samples.

Results

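The enzymes that turn arginine into nitric oxide (NO) or ornithine, and aconitate into itaconate, are encoded by 6 genes: the NO synthase genes Nos1, Nos2 and Nos3, the arginase genes Arg1 and Arg2, and Irg1. They were found in the deposited gene annotation by their gene names, and each name matched 1 gene model of 50578. Irg1 is an older symbol of Acod1. The Ensembl identifiers are ENSMUSG00000029361 for Nos1, ENSMUSG00000020826 for Nos2, ENSMUSG00000028978 for Nos3, ENSMUSG00000019987 for Arg1, ENSMUSG00000021125 for Arg2 and ENSMUSG00000022126 for Irg1. All 6 are Ensembl protein-coding models, and no second model was found under a synonym listed by RefSeq.

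NO synthases oxidise arginine to citrulline and NO. Each has an oxygenase part that holds heme and tetrahydrobiopterin, a calmodulin-binding stretch and a reductase part that carries electrons from NADPH through FAD and FMN. Nos1 is the neuronal, Nos3 the endothelial and Nos2 the inducible form, best known from macrophages exposed to bacterial products. Arginases compete for the same substrate: Arg1 is the cytosolic enzyme of the liver urea cycle and of alternatively activated macrophages, and Arg2 the mitochondrial one. Irg1 decarboxylates cis-aconitate in mitochondria to itaconate, which inhibits succinate dehydrogenase.

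The study behind the annotation read RNA from mouse macrophages grown out of bone marrow for 7 days with the growth factor M-CSF at 50 ng per ml, in 16 libraries. Wild-type C57BL/6 cells gave 3 untreated and 3 lipopolysaccharide (LPS) RNA-seq libraries. They also gave 2 untreated and 2 LPS ribosome profiling libraries, whose titles carry the tag CHX. The duration of LPS was not given per sample for the RNA-seq and ribosome profiling libraries. Cells labelled LysM-Cre x RiboTag, in which Cre made in myeloid cells switches on an HA tag on ribosomes, gave 2 untreated libraries, 2 after 6 h and 2 after 24 h of LPS. Values per library were not analysed here, so nothing below is a level or a response to LPS, the identity of the cells was not checked on markers, and no test between conditions was made. The results describe the gene models on which such reads are counted, in build mm10, and their positions count from 1.

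The 6 genes lay on 5 chromosomes. Nos1 (chromosome 5, 117781032 to 117958840, plus strand) spanned 177809 bases and Nos3 (chromosome 5, 24364810 to 24384474, plus strand) 19665 bases. Nos2 spanned 39468 bases on chromosome 11 (78920787 to 78960254, plus strand). Arg1 spanned 12263 bases on chromosome 10 (24915208 to 24927470, minus strand) and Arg2 25525 bases on chromosome 12 (79130777 to 79156301, plus strand). Irg1 was the most compact, with 9597 bases on chromosome 14 (103046977 to 103056573, plus strand). Exons covered 27.3% of the span of Irg1 and 21.01% of that of Nos3, but 6.27% of Nos1 and 5.59% of Arg2. The median over 21598 protein-coding models with a complete coding sequence (CDS, with start and stop codon lines) was 18.7%.

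**Figure D1:**
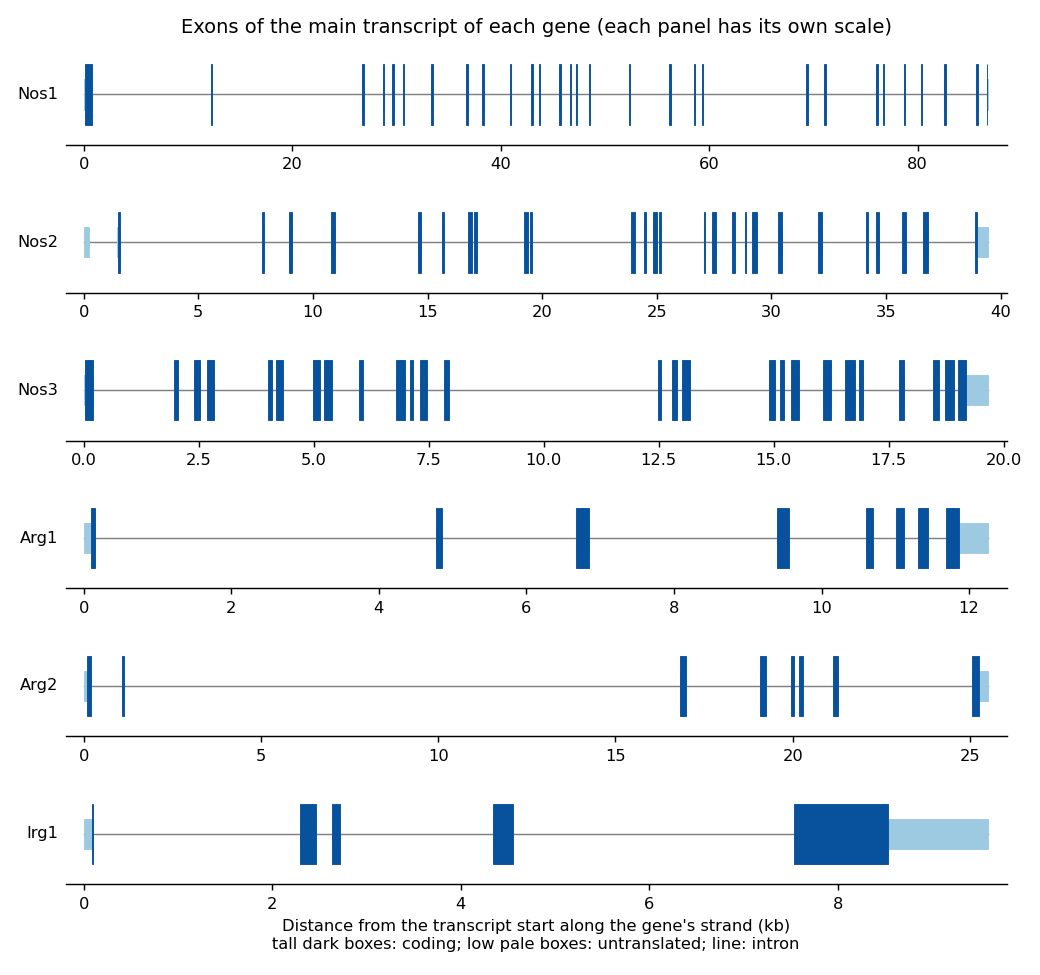
Exons of the main transcript of each gene, drawn by distance in kb from the transcript start along its strand, with coding parts tall and dark and untranslated parts low and pale. Nos2 and Nos3 show similar numbers of coding exons over 39.5 and 19.7 kb, Arg2 has 1 long gap where Arg1 has none, and Irg1 ends in 1 large exon.

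The main transcript of a gene was the complete one with the longest CDS. By this rule Nos1 had 29 exons and 1463 codons, Nos2 27 exons and 1144 codons, and Nos3 26 exons and 1202 codons. The NO synthase genes thus belong to the long coding genes, since between 92.1% (Nos2) and 95.5% (Nos1) of protein-coding models had a shorter CDS. Arg1 had 8 exons and 323 codons, Arg2 8 exons and 354 codons, both below the median of 395 codons. Irg1 had 5 exons and 488 codons, above 61.1% of models.

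**Figure D2:**
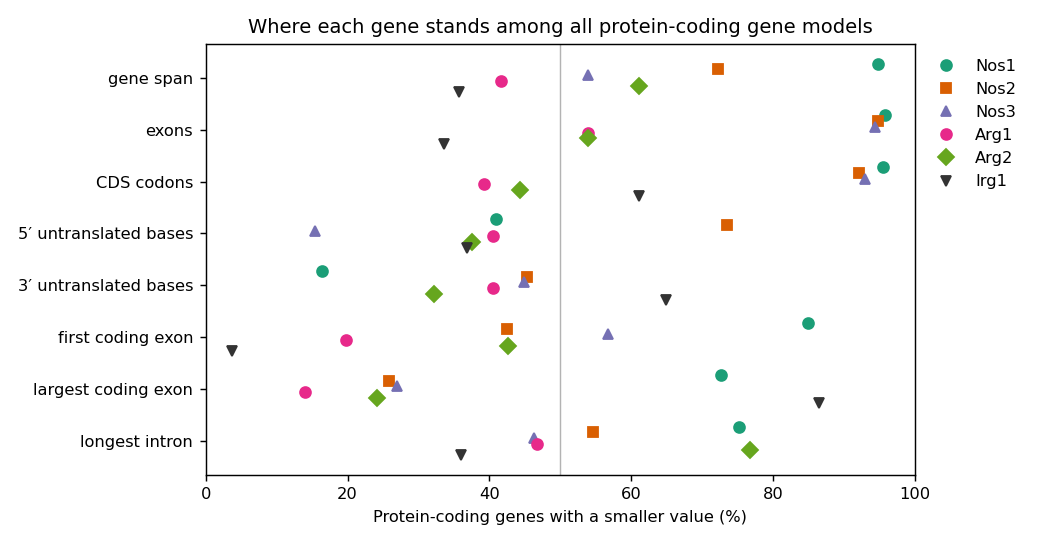
Share of 21598 protein-coding gene models with a smaller value than each of the 6 genes, for 8 measures, 1 mark per gene. Gene span is that of the whole gene model. The other measures are of the main transcript, which for Nos1 is Nos1-002. The NO synthase genes sit at the right for exons and codons but apart for span, and Irg1 stands at 3.66% for the first coding exon and at 86.5% for the largest one.

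Most coding exons of the NO synthase genes could be laid side by side. Coding exons of 2 genes were paired in order when both started and ended at the same place within a codon and differed by at most 30 bases. This left 22 exons paired across Nos1, Nos2 and Nos3, which had 29, 26 and 26 coding exons. In 15 of the 22 the length was the same to the base in all 3 genes, which together make 2067 coding bases. Where paired exons of 2 genes differed, they did so by at most 24 bases. These differences are whole codons because of the pairing rule.

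The longest stretch of equal exons is in the N-terminal part, towards the oxygenase end. Coding exons 5 to 11 of Nos1 measured 163, 92, 142, 140, 175, 102 and 195 bases. Coding exons 5 to 11 of Nos2 and 4 to 10 of Nos3 had these same lengths, a run of 7 exons and 1009 bases. The exon before this run had 149 bases in Nos2 and Nos3 and 146 in Nos1, so Nos2 and Nos3 shared a run of 8 exons and 1158 bases. A second block lay in the C-terminal part. There, coding exons of 88, 122, 149 and 195 bases followed each other in all 3 genes, as exons 24 to 27 of Nos1 and 22 to 25 of Nos2 and Nos3.

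Exons without a partner in all 3 genes lay at both ends and between the short exon 15 and exon 18 of Nos1. Among the 22 paired exons, 7 differed in length. They were Nos1 exons 4, 12, 15, 19, 21, 22 and 23, of which exon 12 had 86 bases in Nos1, 83 in Nos2 and 74 in Nos3, and exon 22 had 170, 164 and 173. The first coding exon held 710 bases in Nos1, 110 in Nos2 and 164 in Nos3. Its size makes Nos1 longer at the N-terminus, where the neuronal enzyme is known to carry a PDZ domain. Before the paired block, Nos1 had exons of 127 and 129 bases, Nos2 of 70 and 120, and Nos3 1 exon of 103. Length and phase matched the 103-base exon to the 127-base one and the 120-base exon to the 129-base one, in the same order. With lengths up to 60 bases apart, the 70-base exon of Nos2 was paired in both other genes. Its 120-base exon then had no partner in Nos3. Length and phase alone do not show that these exons correspond. At the C-terminal end the CDS of Nos1 ended with exons of 119 and 13 bases, while Nos2 ended with 1 of 96 bases and Nos3 with 1 of 159. In the middle lay a short exon of 59 bases in Nos1, 50 in Nos2 and 68 in Nos3. In the main transcript of Nos1 it was followed by exon 16 of 102 bases, which had no partner. A 117-base exon came after that in Nos1, and straight after the short exon in Nos3, with no partner in Nos2. The constitutive enzymes are known to have an autoinhibitory insert in the FMN part that the inducible enzyme lacks. Whether the 117-base exon encodes it was not tested, since no protein sequence was read.

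**Figure D3:**
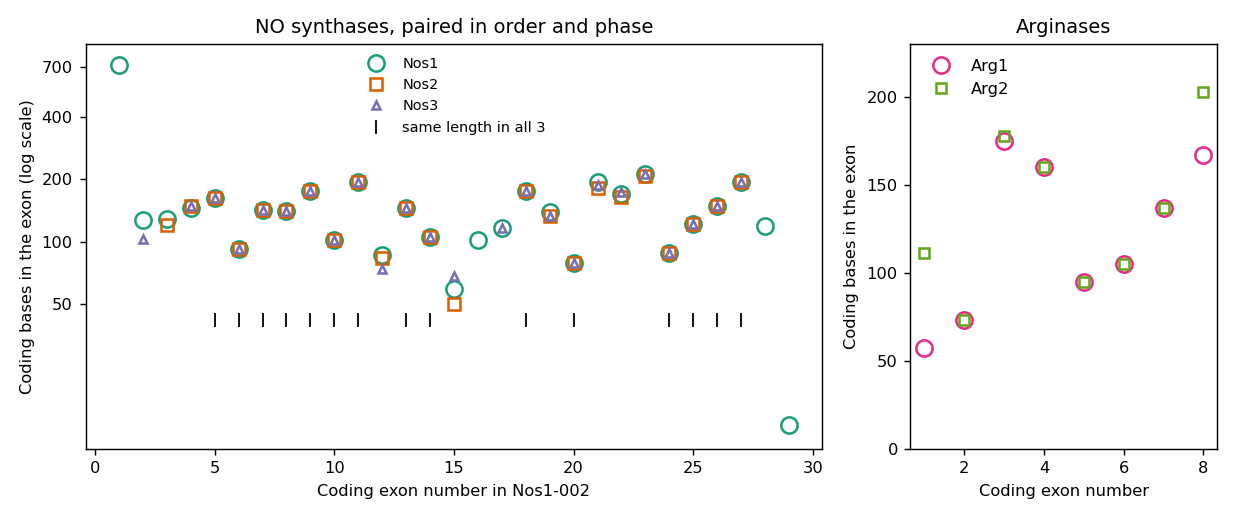
Coding bases in each exon for the NO synthases (left, log axis, by coding exon number of Nos1-002; ticks mark 15 exons of equal length in all 3 genes) and the arginases (right). The marks of the 3 genes lie on each other at most exons, the first coding exon of Nos1 is the highest mark with 710 bases, its exon 16 of 102 bases has no partner, and Arg1 and Arg2 part mainly at the first and last exon. The first, second and last coding exon of Nos2 and the first and last of Nos3 have no paired exon and are not drawn.

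All 20 introns between exons paired in all 3 genes interrupted the codon at the same place. The phase of an intron says how many bases of a codon stand before it. By pair of genes, the phase was equal in 21 of 21 introns for Nos1 and Nos2, 21 of 21 for Nos1 and Nos3 and 20 of 20 for Nos2 and Nos3. Pairing itself required equal phases, so these counts show how much of each gene could be paired and do not test phase. The paired exons made up 72.9% of the Nos1 CDS and 91.96% of the Nos2 CDS for that pair. They made up 75.6% of Nos1 and 91.0% of Nos3 for the pair Nos1 and Nos3, and 88.5% of Nos2 and 84.9% of Nos3 for the pair Nos2 and Nos3.

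Intron lengths, in contrast, differed between the NO synthase genes at the same positions. Over the 20 introns the median was 1697 bases in Nos1 (482 to 9887), 826.5 in Nos2 (85 to 4310) and 341.5 in Nos3 (79 to 4542). Nos1 had the longest of the 3 introns at 14 positions, Nos2 at 4 and Nos3 at 2. Nos3 had the shortest at 13. The order was not fixed: at the intron after Nos1 coding exon 14, Nos3 had 4542 bases, Nos2 1873 and Nos1 482. Summed, these introns held 42175 bases in Nos1, 22673 in Nos2 and 13002 in Nos3.

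**Figure D4:**
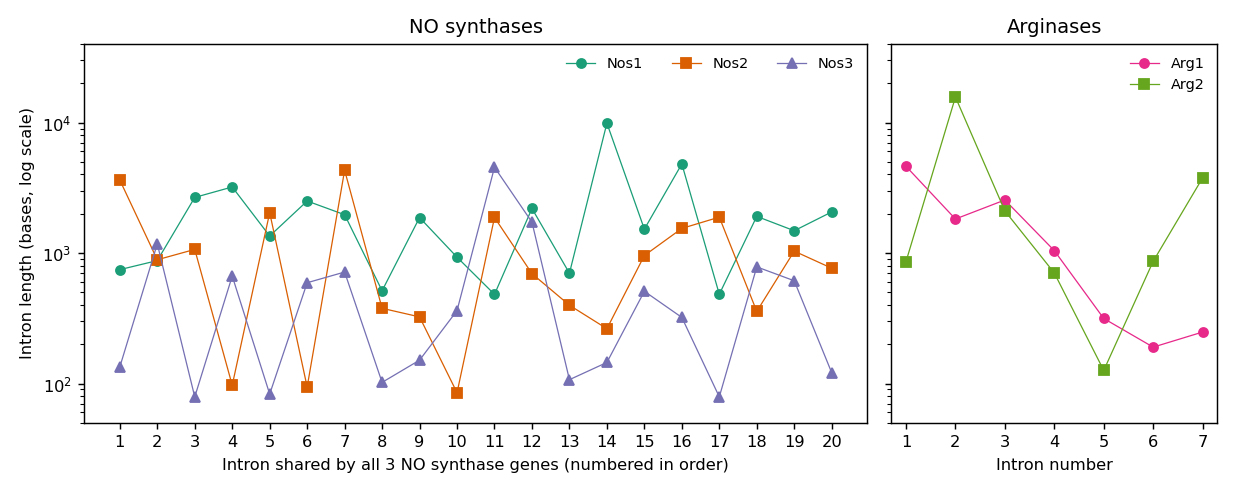
Length in bases (log axis) of the 20 introns at matched positions in the NO synthase genes (left). The 7 introns of the arginase genes (right) are matched by order alone. The Nos3 points are mostly the lowest, Nos1 is highest at 14 positions, and Arg2 stands above Arg1 at its second and last 2 introns.

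Arg1 and Arg2 showed the same plan at a smaller scale. Each had 8 coding exons. Exons 2, 4, 5, 6 and 7 had 73, 160, 95, 105 and 137 coding bases in both genes, and exon 3 had 175 in Arg1 and 178 in Arg2. The first coding exon held 57 bases in Arg1 and 111 in Arg2. Arg2 is the mitochondrial form, and import sequences of such enzymes usually lie at the N-terminus. The last one held 167 coding bases in Arg1 and 203 in Arg2. Thus 31 more codons of Arg2 came from both ends and 1 exon in between. The 7 introns had the same phases in order (0, 1, 2, 0, 2, 2 and 1).

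Introns set the different spans of the arginase genes. The second intron had 1823 bases in Arg1 and 15674 in Arg2, while the first had 4618 in Arg1 and 860 in Arg2. Introns 3, 4 and 5 were longer in Arg1 (2550, 1043 and 315 bases against 2103, 703 and 126). The last 2 were longer in Arg2 (864 and 3767 against 190 and 248).

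Irg1 resembled none of the other 5 genes in its exons. Its CDS began with 12 bases, or 4 codons, in exon 1, and only 3.66% of models had a shorter first coding exon. Exons 2, 3 and 4 held 162, 90 and 206 coding bases. The last exon held 994, which is 67.9% of the CDS. Among 1490 models with 5 coding exons, the largest one held a median of 34.4% of the CDS, and 94.2% of them had a lower share than Irg1.

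To find the models most like each gene, internal coding exons (all but the first and last) were compared with those of 16798 other protein-coding models. Likeness was the longest run of consecutive exons of equal length. For Nos1, Nos2 and Nos3 the first 2 places went to the other 2 NO synthase genes, with runs of 7 or 8 exons. The next models were Dpyd at 2 exons for Nos1, Pdlim4 at 3 for Nos2 and Cdyl at 2 for Nos3. Dpyd and Cdyl led large ties: 132 models had a run of at least 2 with Nos1 and 96 with Nos3. Arg1 and Arg2 were first for each other with 4 exons and 497 bases. Behind them, runs of 2 exons joined Arg1 to Gm7173 and Atp13a5, and Arg2 to Dpp8 and Slc35a1. These too were ties, as 23 models had a run of at least 2 with Arg1 and 22 with Arg2. Irg1 reached 2 exons at most, first with Pdgfb, Prom2 and Cfap70, and 12 models did so. Such runs were not rare: of 8411 models with at least 7 internal coding exons, 2148 (25.5%) shared a run of 7 with another gene, and 1666 (19.8%) with a gene on another chromosome. A run of 4, as in the arginases, was shared with another gene by 4610 (38.3%) of 12043 models with enough exons, and by 3803 (31.6%) with a gene on another chromosome. For a run of 3 the share was 7000 (51.7%) of 13533 models.

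Transcript forms were unevenly spread. Nos1 had 7 annotated transcripts, Nos3 2, and Nos2, Arg1, Arg2 and Irg1 1 each. Of all models 37.7% had a single transcript, and 81.97% had fewer than Nos1. RefSeq differed in both directions, since its table listed 1 transcript for Nos1 but 3 for Nos2, all curated. The deposited Nos2 model started at the same base as the RefSeq gene and ended 28 bases beyond it.

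Of the 7 Nos1 transcripts, 5 had a CDS, and 4 different CDS were annotated among them. Nos1-001 and Nos1-201 shared a CDS of 1429 codons, the one with a consensus CDS identifier. Nos1-002, of 1463 codons, had in addition exon 16 of 102 bases (117915547 to 117915648), which adds 34 codons between the 59-base and the 117-base exon. An insert at this place is known from the muscle form of neuronal NO synthase. Nos1-003 was annotated as a target of nonsense-mediated decay, the removal of RNAs with an early stop. In it exon 28 ran on for 289 bases to a length of 408, and the stop codon lay 285 bases before the last exon junction, after 1425 codons. Nos1-005 was an incomplete model with 80 codons and no stop codon, all within the first coding exon of the other forms.

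Support for these forms was mixed. On Ensembl's scale of transcript support, from 1 (best) to 5, Nos1-201 and Nos1-003 stood at 1, Nos1-005 at 2, Nos1-004 and Nos1-006 at 3, and both Nos1-001 and Nos1-002 at 5. All 6 transcripts of the other 5 genes stood at 1. The longest CDS of Nos1 thus came from a model of low support, as did that of Nos1-001, while Nos1-201, at level 1, had 1429 codons.

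The length of Nos1 depends strongly on the form. Spliced lengths ran from 631 bases in Nos1-006 to 10123 in Nos1-001, against 4591 in Nos1-002. Nos1-001 owed this to a 3′ untranslated region of 5027 bases. That of Nos1-002 had 96 bases, and Nos1-201 ended on its stop codon with 0. In exon bases found in no other Nos1 transcript, Nos1-001 had 4812, Nos1-004 299, Nos1-003 289, Nos1-006 221, Nos1-002 102, Nos1-005 23 and Nos1-201 0. A read would have to fall in these bases, or span a junction of its own, to be assigned to 1 form. Nos1-201 had no such base and no such junction, and Nos1-002 had 2 junctions of its own.

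Nos3 had 2 coding transcripts from the same first exon. Nos3-001 had 1202 codons. Nos3-002 skipped coding exon 25, of 195 bases, and began its last exon 93 bases later, so that 288 bases or 96 codons were absent while the stop codon was the same. The skipped exon is the 195-base exon that closes the second block of equal exons in Nos1, Nos2 and Nos3. Nos3-001 had 435 exon bases that Nos3-002 lacked, and Nos3-002 had none of its own but 1 junction.

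**Figure D5:**
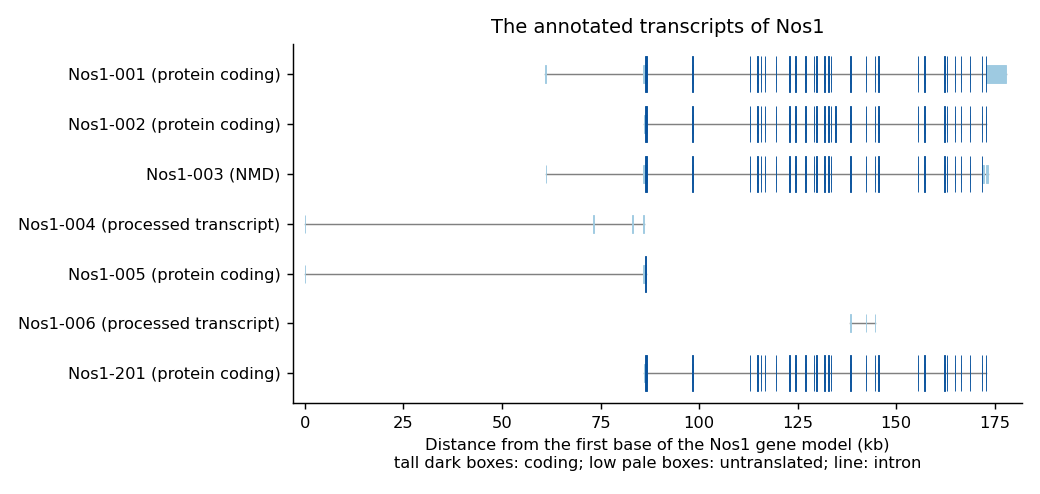
The 7 transcripts annotated for Nos1, by distance in kb from the first base of the gene model, with coding parts tall and dark and untranslated parts low and pale. They start at 4 separate places, 3 of them at or before the exon with the start codon and 1 within the coding part, and Nos1-001 alone carries the 5043-base last exon.

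First exons fell into 4 groups in Nos1 when those that overlap were joined, and into 1 group in each of the other 5 genes. Among all models, 82.4% had fewer groups than Nos1, and 52.7% had 1. The first group of Nos1 (117781032 to 117781159) belonged to Nos1-004 and Nos1-005 and lay 86185 bases before the start codon. The second (117841850 to 117842277), of Nos1-001 and Nos1-003, lay 25367 bases before it. The third (117867114 to 117867926), of Nos1-002 and Nos1-201, began 103 bases before the start codon, inside an exon that is the second one of Nos1-001, Nos1-003 and Nos1-005. The fourth (117919175 to 117919512), of the non-coding Nos1-006, lay within the coding part. All 5 coding transcripts had the same start codon, so their first exons differ in the untranslated leader and leave the first codon in place.

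In Nos2 the start codon lay in exon 2, 1481 bases from the gene start, after a leader of 255 bases. In Nos3, Arg1, Arg2 and Irg1 it lay in exon 1, after 28, 102, 93 and 91 bases. The leader of Nos3 was longer than in 15.4% of models and that of Nos2 longer than in 73.6%, where the median was 134 bases. The 3′ untranslated region had 1065 bases in Irg1, 502 in Nos2, 495 in Nos3, 402 in Arg1 and 270 in Arg2, against a median of 608.5.

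RefSeq windows around the gene start (250 bases before and 50 after, build GRCm38.p6, the same primary assembly as mm10) matched 2 of the 6 genes, Nos1 and Acod1. They are printed because both starts differ from the annotated first exons. In the Nos1 window, chr5:117866589-117866888 on the plus strand, capitals mark the 42 bases just before the RefSeq start. In the Acod1 window, chr14:103046762-103047061 on the plus strand, capitals mark a match to GGAANTTCC and one to TATAAA.
Nos1: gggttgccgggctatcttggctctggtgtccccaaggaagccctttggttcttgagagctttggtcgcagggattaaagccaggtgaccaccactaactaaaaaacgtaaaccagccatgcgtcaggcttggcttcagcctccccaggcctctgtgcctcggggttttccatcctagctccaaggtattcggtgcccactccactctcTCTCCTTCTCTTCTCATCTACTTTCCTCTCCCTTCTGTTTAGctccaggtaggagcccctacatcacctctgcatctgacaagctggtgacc
Acod1: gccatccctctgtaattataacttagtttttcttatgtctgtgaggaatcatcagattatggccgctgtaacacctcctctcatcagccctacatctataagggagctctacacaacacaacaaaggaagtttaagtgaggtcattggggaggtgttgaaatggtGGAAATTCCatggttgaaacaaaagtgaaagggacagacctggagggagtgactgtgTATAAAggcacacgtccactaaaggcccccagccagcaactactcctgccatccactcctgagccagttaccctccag

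The RefSeq start of Nos1, 117866839, is 85807 bases downstream of the deposited gene start and equals the first base of exon 2 in Nos1-001, Nos1-003 and Nos1-005. The capitals end in AG. Of the 40 bases before that AG, 92.5% were C or T, more than in 99.9% of 32544 distinct windows, where the median was 50%. A run of pyrimidines closed by AG is the usual form of a 3′ splice site. AG stood at this place in 1987 windows (6.11%), and in 6 with as high a pyrimidine share as here. In all, 169 windows (0.519%) started at an internal exon and at no first exon of an Ensembl transcript. All 169 had AG just before the start. AG stood there in 4.70% of the windows that started at a first exon. The 169 were picked by an annotated internal exon start, which usually follows AG, so that choice all but fixed their count. The same holds for the AG of Nos1. Letters alone do not show which of the starts is used in macrophages, and no reads were examined.

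The RefSeq start of Acod1, 103047012, lies 35 bases downstream of the deposited start of Irg1. The TATAAA match ran from 28 to 23 bases before the RefSeq start on the gene's strand, which is bases 8 to 13 inside the first exon of the deposited model. TATA boxes are known to lie a short way before the start. TATAAA stood from 35 to 16 bases before the start on the gene's strand in 596 windows (1.83%), and anywhere on either strand in 13.6%. The match to GGAANTTCC, the symmetrical centre of many NF-kB sites, ran from 85 to 77 bases before the RefSeq start and the pattern is its own reverse complement. The motifs were chosen after the sequences were read, and 0.928% of windows held it. A second NF-kB form, GGGNNTTCC, was found in the Nos1 window, from 89 to 81 bases before the RefSeq start, and in 5.85% of windows. GAAANNGAA for interferon regulatory factors, TTCNNNGAA for STAT proteins, TGANTCA for AP-1, TTGCNNAA for C/EBP and TGACGTCA for CREB, searched on both strands, had no match in the 2 windows. A match is a description of letters and not of a bound site.

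No exon base of the 6 genes was shared with another gene on the same strand, but the genes differed in what lay opposite. Nos2, Arg1 and Irg1 overlapped no other gene on either strand, as did 52.9% of models. Opposite exons covered 32.3% of the exon bases of Nos3, 19.96% of Arg2 and 2.40% of Nos1. Such cover was found in 4780 models (22.1%), with a median of 7.80% among them. For Nos3, 97.7% of models had a lower share, and for Arg2 95.1%.

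Opposite Nos3 lay 2 genes. The antisense RNA gene Gm15587 covered 1040 bases of the Nos3 CDS and touched 10 of its exons, between exons 2 and 25. Atg9b, which encodes an autophagy protein, covered the last 294 bases of the 3′ untranslated region. Opposite Arg2, Vti1b, which encodes a SNARE protein of vesicle fusion, covered 285 bases: the whole 3′ untranslated region of 270 bases, the stop codon and the last 12 bases of the CDS. The antisense gene Gm26995 covered 268 coding bases in exons 21 and 22 of Nos1-002. The labels do not say if counting used strand. If it did not, position alone could not assign an unspliced read from these bases to 1 gene. A single-exon model, Gm37028, lay in an intron of Nos1 and touched none of its exons.

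The nearest coding neighbours were Ksr2 and Fbxo21 for Nos1, 6028 bases upstream and 17889 downstream. They were Lyrm9 (73916 upstream) and Lgals9 (2719 downstream) for Nos2, and Kcnh2 (13205 upstream) and Abcb8 (9188 downstream) for Nos3. For Arg1 they were Akap7, 241619 bases upstream, and Med23, 1526 downstream. For Arg2 they were Pigh, 41106 upstream, and Rdh11, 18035 downstream. For Irg1 the upstream one was Kctd12, at 64339 bases.

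The surrounding pathway was read from a list of 60 genes that supply arginine or cofactors, take up the products or respond to them. All 60 named a protein-coding model with a complete CDS, on 19 chromosomes, with a median of 389 codons (84 to 1500), 9 exons (3 to 38) and 4 transcripts (1 to 10). Of these, 17 had a single transcript, against 4 of the 6 enzyme genes above. Cps1, the mitochondrial carbamoyl phosphate synthase of the urea cycle, had the longest CDS with 1500 codons. Gchfr, which feeds back on the first enzyme of tetrahydrobiopterin synthesis, had the shortest with 84. Prkg1, a protein kinase activated by the cyclic GMP that NO induces, had the longest span, 1197483 bases.

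The list's groups differed in size. The 7 tetrahydrobiopterin genes had a median CDS of 187 codons and a median of 1 transcript. The 10 genes of arginine supply had a median of 495.5 codons and the 5 of the NO receptor pathway 691. The 14 genes around the source, break-down and target of itaconate, among them the 4 subunits of succinate dehydrogenase, had a median of 399.5 codons and 11 exons. Among the 60, 4 shared exon bases with a gene model of another name on the same strand. Whether such a model is the same gene under another symbol was not checked. Sugct, a CoA transferase gene, was covered over all of its 1311 exon bases by the added model 5033411D12Rik, so reads there fall on both names. Azin2, an inhibitor of antizyme in polyamine synthesis, shared 1917 bases (47.6%) with the model named Adc. Nos1ap and Gucy1a3 shared 171 bases and 1 base.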

How the data were processed

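The deposited file is a gene annotation of 1544831 lines and 115521 transcripts, whose 2 value columns are start and end positions. Its score column is empty in every line, and 0 columns hold values per sample, so depth is unknown. Build mm10 and TopHat2 version 2.1.1 are named in the submitters' processing notes, and the origin of the annotation was not given in the sources used here. Models were read with Python 3.11.15, pandas 2.3.3 and numpy 2.4.6, and drawn with matplotlib 3.10.9. CDS lengths leave out the stop codon. Percentiles are over protein-coding Ensembl models with a complete CDS and carry no test, since genes are not replicates. Coding exons were paired by an alignment that scored 3 for equal length and 1 for lengths up to 30 bases apart, at a cost of 0.25 per unpaired exon. Intron positions on aligned proteins, the first choice, were replaced by order, phase and length of coding exons, as no protein sequence was used. The functions for runs of equal exons, exon pairing and shared bases were tested on simulated exon lengths and intervals. The pairing test used small length changes and an inserted exon longer than all others. It did not cover unpaired exons of similar length. The 6 genes, the pathway list and the measures were chosen with earlier results of these data known. By rule, all 6 genes, their neighbours (1 is not reported here), overlapping genes, the 3 models most like each and the extremes of the pathway list are named. Nos1ap, Gucy1a3, Azin2, the genes quoted from the pathway list in the closing section and the motifs were named after their values were seen. A RefSeq gene table of GRCm38.p6 gave current symbols, transcripts and starts.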

Additional observations from a re-analysis of the deposited data

How the results depend on the processing

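Over 93 alternative values for 41 results, 88 stayed within 1.5 times of the reported value and 5 moved. Many of the 88 could not move. Nos2, Arg1, Arg2 and Irg1 have 1 transcript each, so settings that choose among transcripts could only return the reported value. The tally is therefore no measure of robustness for these genes. The 4 first-exon groups of Nos1 became 7 when start positions were counted one by one, since each of its transcripts starts at a base of its own. The longest run of equal exons of Nos1 went from 7 to 11, with Nos2, when lengths within 3 bases and equal modulo 3 were allowed. That setting also took the arginase run from 4 to 6 exons, which is at the limit of 1.5 times. Shared exon bases, 0 on the same strand, became 268 for Nos1, 1334 for Nos3 and 285 for Arg2 on either strand, which follows from counting the opposite genes. The consensus CDS of Nos1 gave 1429 codons in place of 1463. Settings with exon lengths up to 60 bases apart, the consensus CDS and runs over every coding transcript were chosen after seeing the data. With lengths up to 60 bases apart, all 8 arginase exons were paired. The 2 settings that need an alignment of protein sequences were not run, because no protein sequence was used here. No paired analysis was possible because the analysed file is an annotation without libraries.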

Other observations

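Related genes within the pathway list differed in how much of their exon plan they shared, by the same pairing rule. The pairs were named after their values were seen and carry no test. Calm2 and Calm3, which encode the calmodulin that NO synthases bind, had 149 codons each, and all 6 coding exons had equal lengths, beginning with an exon that holds only the start codon. Ddah1 and Ddah2, which clear methylated arginines that inhibit NO synthases, had 285 codons each and 4 of 6 exons of equal length. Their spans were 135603 and 3061 bases.

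Prkg1 and Prkg2, the cyclic GMP-dependent kinases, had 12 exons of equal length among 18 each, with a run of 6. Azin1, an antizyme inhibitor, and Odc1, the ornithine decarboxylase it resembles, had 7 of 10 equal. For transport, the cationic amino acid transporters Slc7a1 and Slc7a3 had 7 of 11 equal, and Slc7a1 and Slc7a2 had 4 of 11.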
